A study of Homo sapiens with 3 samples.

Results

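The genes described here are 10 genes of the NF-kB pathway and its feedback loop: the subunits NFKB1, NFKB2, RELA and RELB, the inhibitors NFKBIA and TNFAIP3, the ubiquitin ligases BIRC2 and BIRC3, and the targets ICAM1 and TNFAIP2. They were taken by name from the 33694 annotated features, and each name matched 1 feature. The rule used no measured value, but the genes were chosen with earlier results of these data known. Levels were read in 3 single-cell libraries of BxPC-3, a long-used cell line from a human adenocarcinoma of the pancreatic duct. All 10 genes had a mean of at least 10 counts per 1000000 UMIs (CPM; a UMI, or unique molecular identifier, marks 1 captured RNA molecule), as did 7687 genes in all.

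NF-kB is a family of dimeric transcription factors that wait in the cytoplasm until a receptor, a danger signal or DNA damage frees them. In the canonical arm, RELA pairs with p50, which is made from NFKB1, and is held back by IkB alpha, the product of NFKBIA. In the alternative arm, RELB pairs with p52, which is made from NFKB2. Freed dimers switch on inflammatory and survival genes together with their own brakes, among them NFKBIA and TNFAIP3, so the level of these transcripts is often read as a trace of recent activity. RNA does not show where the protein is, and nuclear NF-kB was not measured here.

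The libraries came from a study of cell-in-cell structures, in which a living cell enters another (entosis). BxPC-3 cells stably carrying EGFP were mixed with the same number carrying mCherry and were held in suspension to induce this. The double-positive library was made from cells sorted for both signals, the single-positive library from cells with either signal alone, and the parental library from the line itself. It is not stated whether single-positive cells of both colours were pooled, whether the parental cells were in suspension, or when the trypsinized cells had been expanded. Each group was 1 library, so differences between groups are without a replicate check and could not be tested. The intervals given are exact 95% intervals that cover counting error only.

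Barcodes of at least 6500 UMIs were taken as cells, which gave 1940 double-positive, 1291 single-positive and 2409 parental cells. Their median depths were 29963.5, 38137 and 23290 UMIs, and their median mitochondrial shares were 2.08%, 1.30% and 0.947%. No barcode was shared by all 3 libraries, and pairs of libraries shared 1 to 6. All 9 epithelial markers were above 10 CPM in each library, with sums of 14460, 15270 and 15470 CPM. The 6 fibroblast markers summed to 1.92 to 2.31 CPM, the 5 endothelial markers to 0.278 to 0.470 CPM, the 8 immune markers to 3.83 to 5.46 CPM and the 3 erythroid markers to 0.218 to 0.329 CPM. The immune sum was nearly all CD14, while 4 of the 8 immune markers were at 0 in each library. The 5 acinar and endocrine markers were at 0, except CELA3A at 0.0157 CPM in the parental library. With a single cell type present, no other type could serve as a background for shares of cells with a UMI.

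Promoter letters are shown for the most variable feedback genes and for BIRC3 and BIRC2, a pair of neighbouring paralogs whose levels behaved differently in the libraries. Each line is the 250 bases before the gene's listed start in RefSeq on GRCh38.p14, read 5′ to 3′ on the gene's own strand, and capitals mark matches to the kappaB consensus on either strand. The windows are chr14:35404750-35404999 on the minus strand for NFKBIA, and on the plus strand chr6:137867009-137867258 for TNFAIP3, chr11:102317234-102317483 for BIRC3 and chr11:102346964-102347213 for BIRC2.
NFKBIA: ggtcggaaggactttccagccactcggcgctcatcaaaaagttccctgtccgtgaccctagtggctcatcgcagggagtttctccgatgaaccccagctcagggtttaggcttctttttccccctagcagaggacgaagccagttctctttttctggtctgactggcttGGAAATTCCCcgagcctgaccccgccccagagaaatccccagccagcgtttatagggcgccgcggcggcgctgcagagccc
TNFAIP3: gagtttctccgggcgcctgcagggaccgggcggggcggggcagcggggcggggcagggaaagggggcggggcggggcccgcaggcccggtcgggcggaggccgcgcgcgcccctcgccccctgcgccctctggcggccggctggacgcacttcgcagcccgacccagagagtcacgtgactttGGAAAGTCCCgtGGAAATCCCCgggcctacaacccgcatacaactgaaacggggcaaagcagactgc
BIRC3: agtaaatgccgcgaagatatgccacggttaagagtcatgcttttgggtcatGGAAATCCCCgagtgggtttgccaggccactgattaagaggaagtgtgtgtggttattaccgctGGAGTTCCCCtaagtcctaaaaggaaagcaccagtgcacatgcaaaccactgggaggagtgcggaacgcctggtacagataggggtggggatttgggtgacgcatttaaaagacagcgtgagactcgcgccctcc
BIRC2: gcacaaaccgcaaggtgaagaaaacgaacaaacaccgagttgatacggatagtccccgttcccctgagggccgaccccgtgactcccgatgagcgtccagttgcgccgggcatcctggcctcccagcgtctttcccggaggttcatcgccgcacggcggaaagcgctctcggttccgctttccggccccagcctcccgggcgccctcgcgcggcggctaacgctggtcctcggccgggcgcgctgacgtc
NFKBIA held 1 match, which began 81 bases before the start. TNFAIP3 held 2, at 67 and 55 bases, and BIRC3 held 2, at 199 and 135 bases. The BIRC2 window held none, which says only that these letters are not in this window. Of the 10 genes, 9 had a promoter entry and 5 had a match in at least 1 listed window: NFKB1, NFKB2, NFKBIA, TNFAIP3 and BIRC3. A match lay in 9.96% of all 35116 windows of this length and in 11.8% of 27305 genes. A match describes the sequence and does not show binding.

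On the GENCODE 29 annotation of GRCh38, BIRC3 spans chromosome 11 from 102317450 to 102339403 and BIRC2 from 102347211 to 102378670, both on the plus strand. NFKBIA lies on the minus strand of chromosome 14 from 35401511 to 35404749, and TNFAIP3 on the plus strand of chromosome 6 from 137867188 to 137883312. This TNFAIP3 start lies inside the window printed above, which follows the RefSeq start, so the TNFAIP3 matches lie after the GENCODE start. No other gene overlapped any of the 10 on its own strand. RELA, TNFAIP3 and ICAM1 each overlapped an annotated gene on the opposite strand.

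The subunit transcripts were close to level across the libraries. NFKB1 stood at 43.7 CPM (42.1 to 45.4) in double-positive, 47.8 CPM (45.9 to 49.7) in single-positive and 45.8 CPM (44.1 to 47.5) in parental cells. The single-positive and double-positive intervals did not overlap, while each overlapped the parental interval. NFKB2 stood at 25.9 CPM (24.6 to 27.2) in double-positive, 29.1 CPM (27.6 to 30.6) in single-positive and 25.9 CPM (24.7 to 27.2) in parental cells, so that the single-positive library lay above the other two. RELA, the main activating subunit, stood at 63.2 CPM (61.2 to 65.2), 65.5 CPM (63.3 to 67.8) and 61.9 CPM (59.95 to 63.8) in the same order of libraries. Its neighbours in level had overlapping intervals. RELB stood at 71.4 CPM (69.3 to 73.6) in double-positive, 69.5 CPM (67.3 to 71.9) in single-positive and 77.6 CPM (75.4 to 79.8) in parental cells, and the parental library was the highest. A gene was counted as apart where its log2 ratio of CPM was at least 0.32 in size, which is 25% higher or 20% lower. Every subunit stayed within this limit in all 3 comparisons, with log2 ratios between -0.17 and 0.17.

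In pooled CPM the feedback inhibitors were highest in the parental library. NFKBIA stood at 149 CPM (146 to 152) in double-positive, 138 CPM (134 to 141) in single-positive and 173 CPM (170 to 176) in parental cells, and no 2 intervals overlapped. The log2 ratio was -0.33 (-0.37 to -0.29) for single-positive against parental cells, -0.22 (-0.26 to -0.18) for double-positive against parental cells and 0.11 (0.06 to 0.16) for double-positive against single-positive cells. TNFAIP3, which encodes the ubiquitin-editing enzyme A20, stood at 103 CPM (101 to 106) in double-positive, 103 CPM (99.8 to 105) in single-positive and 121 CPM (118 to 124) in parental cells. Both sorted libraries had overlapping intervals and lay below the parental one, with log2 ratios of -0.24 (-0.29 to -0.19) for single-positive and -0.23 (-0.27 to -0.18) for double-positive against parental cells. The single-positive ratio turned to 0.01 both with the mean of per-cell CPM, which weights cells equally, and without the cells highest in 4 stress-related genes described later.

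BIRC3, which encodes the inducible ubiquitin ligase cIAP2, was the member with the widest gap. It stood at 10.1 CPM (9.34 to 10.95) in double-positive, 10.3 CPM (9.42 to 11.2) in single-positive and 15.6 CPM (14.7 to 16.6) in parental cells. The log2 ratio was -0.63 (-0.78 to -0.48) for double-positive and -0.61 (-0.76 to -0.45) for single-positive against parental cells, and -0.02 (-0.19 to 0.15) between the sorted libraries. BIRC2, its paralog, which encodes cIAP1, went the other way: 35.0 CPM (33.5 to 36.5) in double-positive, 33.5 CPM (31.9 to 35.1) in single-positive and 30.7 CPM (29.4 to 32.1) in parental cells. The double-positive interval lay above the parental one, with a log2 ratio of 0.19 (0.10 to 0.27), and the single-positive interval overlapped both.

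Among the targets, ICAM1, an adhesion molecule that leukocytes bind, was lowest in the single-positive library. It stood at 26.3 CPM (25.1 to 27.6) in double-positive, 21.8 CPM (20.5 to 23.1) in single-positive and 24.7 CPM (23.5 to 25.9) in parental cells. The log2 ratio for double-positive against single-positive cells was 0.27 (0.16 to 0.38), the largest of the 10 in that comparison and short of the limit. TNFAIP2, a gene induced by tumour necrosis factor, stood at 14.6 CPM (13.7 to 15.6) in double-positive, 13.6 CPM (12.6 to 14.7) in single-positive and 13.1 CPM (12.2 to 14.0) in parental cells, and neighbouring intervals overlapped.

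**Figure D1:**
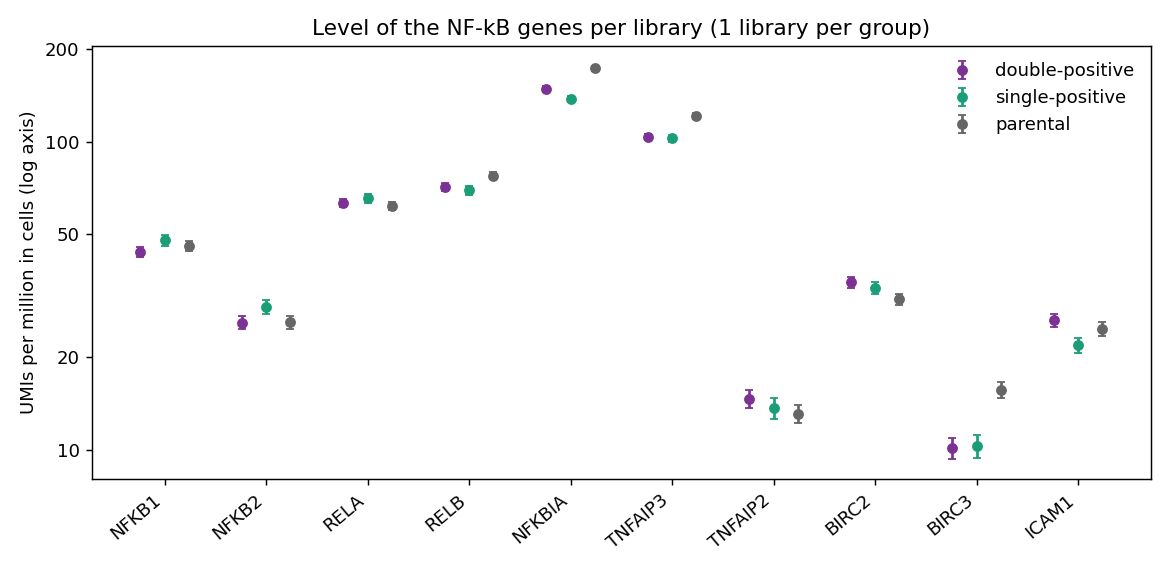
Level of each of the 10 genes in CPM on a log axis, with 1 library per group (double-positive, single-positive and parental from left to right for each gene) and bars for exact 95% Poisson intervals. BIRC3 reads 10.1, 10.3 and 15.6 CPM, and RELA reads 63.2, 65.5 and 61.9 CPM.

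BIRC3 and NFKBIA were the members apart by the limit in any comparison. Between double-positive and single-positive cells, 0 of the 10 were apart by the limit, where 4.03% of the 7687 genes were. For single-positive against parental cells, BIRC3 and NFKBIA were lower by at least the limit, 2 of 10, where 1.38% of all genes were lower by that much and 5.24% were apart in either direction. For double-positive against parental cells, BIRC3 alone was lower by the limit, 1 of 10, where 1.65% of all genes were lower and 3.1% apart. BIRC3 was also past 1.5-fold in both comparisons, as were 0.169% and 0.286% of all genes on the lower side. The median log2 ratios of the 10 genes were 0.03, -0.05 and -0.04 for the 3 comparisons in that order, beside -0.02, 0.05 and 0.03 for all genes. The BIRC3 ratio for double-positive against parental cells was -0.26 without the cells highest in the 4 stress-related genes and -0.29 without cells under 0.5% mitochondrial UMIs, both short of the limit, and that for single-positive against parental cells was -0.22 and -0.34. The NFKBIA ratio for single-positive against parental cells passed the limit in 9 of 14 alternatives, 1 of which left out no cell and so repeated the main value. The comparisons share libraries: the parental library enters both of those in which BIRC3 was lower.

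**Figure D2:**
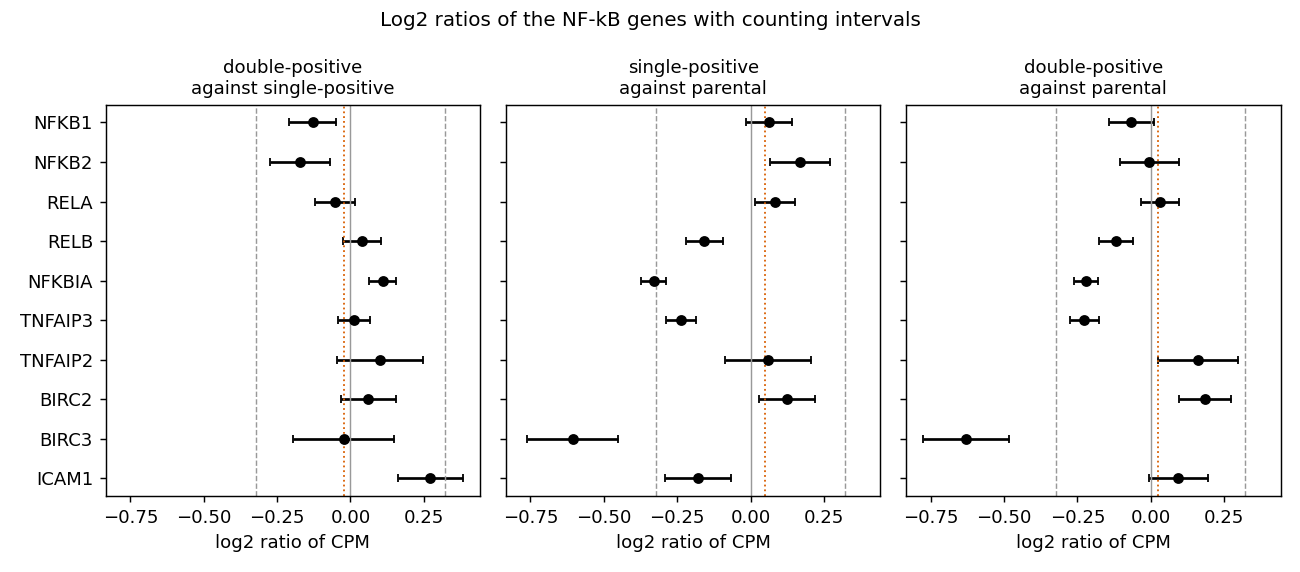
Log2 ratio of CPM of each gene in the 3 comparisons, with exact 95% counting intervals, dashed lines at 0.32 on either side and a dotted line at the median of all genes. BIRC3 lies at -0.61 and -0.63 against the parental library and at -0.02 between the sorted libraries.

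Within each library some of the 10 genes varied from cell to cell well beyond counting error, and others less so. Each cell was thinned to 6500 UMIs and the variance of a gene's UMIs over cells was divided by the mean, a ratio near 1 for a gene that varies by counting alone. RELA had ratios of 1.10 in double-positive, 0.999 in single-positive and 1.03 in parental cells, and BIRC2 had 1.08, 1.11 and 1.02. Among genes of like level, RELA stood at percentiles 67.2, 10.2 and 24.1 and BIRC2 at 69.6, 82.6 and 26.6. NFKB1 lay between 1.16 and 1.22, NFKB2 between 1.19 and 1.41, and RELB between 1.19 and 1.32.

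The feedback inhibitors NFKBIA and TNFAIP3 were more uneven than the subunits and BIRC2, and so were TNFAIP2, BIRC3 and ICAM1. NFKBIA had ratios of 2.92 in double-positive, 2.57 in single-positive and 4.05 in parental cells, and TNFAIP3 had 3.46, 1.81 and 5.57. Among genes within 1.5-fold of its own thinned mean, TNFAIP3 stood at percentile 98.4 in double-positive, 96.2 in single-positive and 98.9 in parental cells. In the same order NFKBIA stood at 97.9, 97.7 and 97.9, and TNFAIP2 at 98.95, 97.5 and 99.7. BIRC3 stood at 97.8, 96.2 and 99.35, ICAM1 at 99, 95.3 and 98.9, and NFKB2 at 95.3, 93.7 and 97.15. By this measure the 2 inhibitors did not stand out from TNFAIP2, BIRC3 and ICAM1. TNFAIP2 had 1.78, 1.30 and 3.75, BIRC3 had 1.46, 1.248 and 2.22, and ICAM1 had 1.77, 1.21 and 1.69 in the same order. A ratio of at least 1.5 was reached by 4 of the 10 genes in double-positive cells, where 7.01% of all genes reached it, by 2 in single-positive cells, where 6.63% did, and by 5 in parental cells, where 7.14% did.

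**Figure D3:**
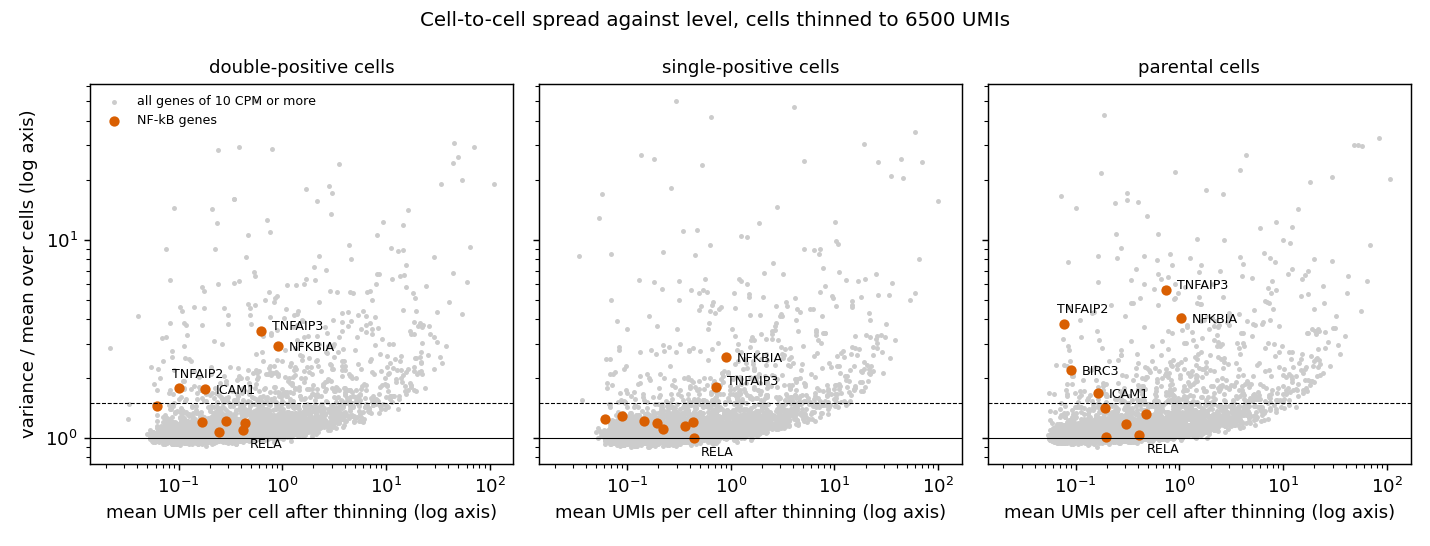
Variance to mean ratio over cells against mean UMIs per cell, both on log axes, for all 7687 genes (grey) and the 10 NF-kB genes (orange) in each library after thinning to 6500 UMIs, with lines at 1 and 1.5. TNFAIP3 and NFKBIA stand above the bulk of genes of their level in each library, and RELA lies near 1.

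Shares of cells with TNFAIP3 were also compared. At equal depth a UMI of TNFAIP3 was seen in 35.6% (33.5 to 37.8) of double-positive, 42.1% (39.4 to 44.9) of single-positive and 36.7% (34.8 to 38.7) of parental cells, which does not follow the order of the pooled CPM. The mean after thinning was 0.626, 0.722 and 0.738 TNFAIP3 UMIs per cell. With the mean of per-cell CPM, the log2 ratio was -0.24 for double-positive against single-positive and 0.01 for single-positive against parental cells, so the order of levels depends on how cells are weighted. The richest thinned cell held 34 TNFAIP3 UMIs in the double-positive, 12 in the single-positive and 57 in the parental library. The tenth of cells with the most TNFAIP3 held 55.6%, 45.3% and 58.7% of its thinned UMIs. For BIRC3 a UMI was seen in 5.15% (4.21 to 6.23), 5.34% (4.18 to 6.72) and 6.48% (5.53 to 7.53) of thinned cells, and the intervals overlapped. Before thinning, the shares of cells with a UMI were 68.3%, 77.5% and 64.5% for TNFAIP3 and 16.8%, 18.6% and 17.6% for BIRC3, at the unequal depths given above. Free RNA was low: among the 10000 largest barcodes of at most 100 UMIs, the mean was 18.1 UMIs in the double-positive, 18.3 in the single-positive and 13.7 in the parental library.

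Most of the 10 genes were correlated with each other over cells. Correlations were taken over the cells of each library on residuals that correct for depth (Pearson residuals of a negative binomial model). They are descriptions, since the cells share a library. An r of at least 0.1 was reached by 36 of the 45 pairs in 1940 double-positive cells, by 32 in 1291 single-positive cells and by 36 in 2409 parental cells. Pairs of a member with any other gene reached it in 4.44%, 6.19% and 5.92% of cases. The median r over the 45 pairs was 0.241, 0.162 and 0.311, and no pair was below 0 in any library.

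The highest r of the 45 was that of NFKBIA and TNFAIP3 in both sorted libraries, and that of TNFAIP3 and BIRC3 in the parental library. NFKBIA and TNFAIP3 had r of 0.577 in double-positive, 0.471 in single-positive and 0.546 in parental cells. TNFAIP3 and BIRC3 had r of 0.394, 0.361 and 0.641, and TNFAIP2 and ICAM1 had 0.495, 0.217 and 0.407. NFKB2 and RELB, the partners of the alternative arm, had r of 0.331, 0.304 and 0.465. NFKB1 and RELA, the partners of the canonical arm, had only 0.0650, 0.114 and 0.0978. With each of the other 9 genes RELA stayed between 0.0235 and 0.123, and BIRC2 and BIRC3 had 0.122, 0.170 and 0.157.

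On log2 UMIs of thinned cells the correlations were mostly lower, and the reason was not tested. NFKBIA and TNFAIP3 then had r of 0.234 in double-positive, 0.212 in single-positive and 0.354 in parental cells, and TNFAIP3 and BIRC3 had 0.0999, 0.0836 and 0.291. An r of at least 0.1 was then reached by 15, 9 and 24 of the 45 pairs, where pairs with any other gene reached it in 0.512%, 0.702% and 0.964% of cases.

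**Figure D4:**
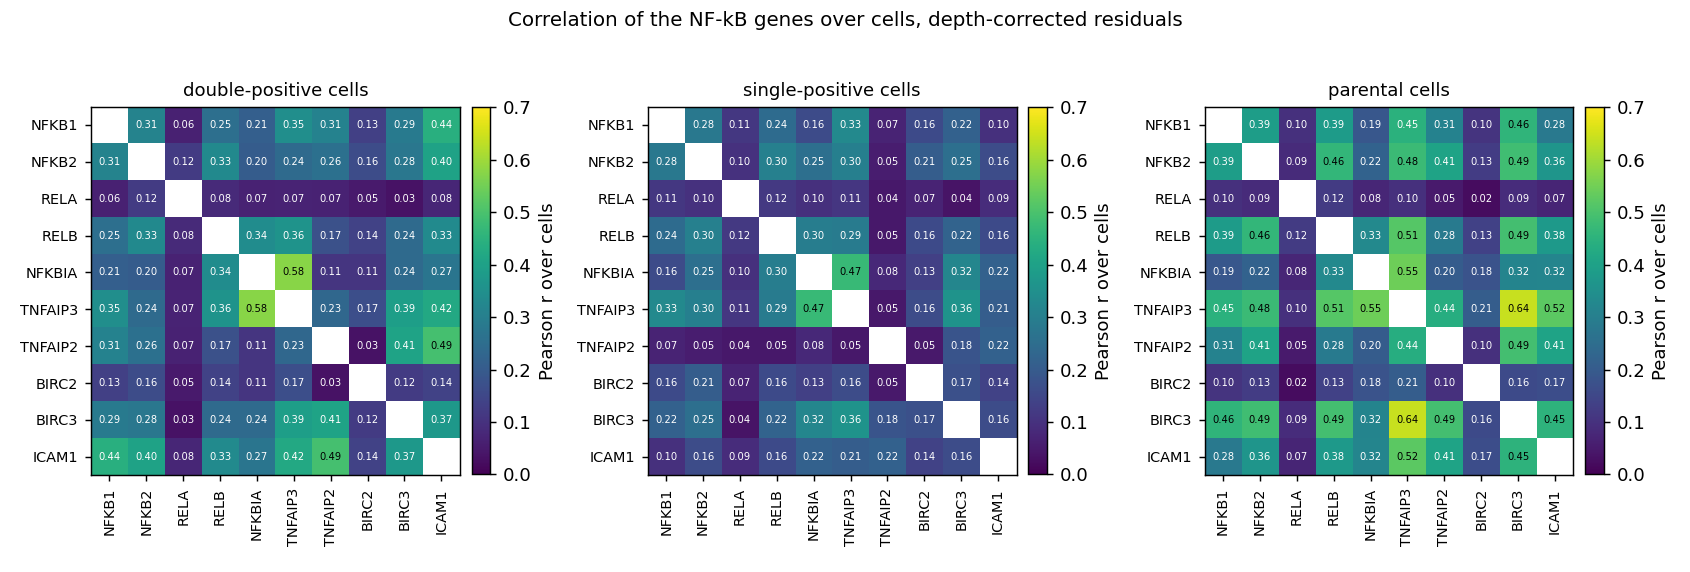
Pearson r over cells between each pair of the 10 genes on depth-corrected residuals, in double-positive, single-positive and parental cells, coloured from 0 to 0.7. The row of RELA is dark in each library, with no r above 0.123, and the pair of TNFAIP3 and BIRC3 reads 0.64 in parental cells.

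Cells sorted by their thinned NFKBIA count show the same in levels. In the 1037 double-positive cells without an NFKBIA UMI, TNFAIP3 stood at 69.1 CPM (63.0 to 75.7), and in the 183 with 3 or more at 240 CPM (213 to 270). In single-positive cells it stood at 85.6 CPM (77.1 to 94.7) in 676 cells without an NFKBIA UMI and 217 CPM (183 to 254) in the 108 with 3 or more. In parental cells it stood at 66.5 CPM (61.1 to 72.2) in 1300 cells and 327 CPM (302 to 354) in 295. RELA stood at 59.2 CPM (54.1 to 64.6) and 74.1 CPM (62.4 to 87.3) in the same parental classes. It stood at 64.7 CPM (58.8 to 71.0) and 80.7 CPM (65.4 to 98.6) in those of double-positive cells. In single-positive cells it stood at 68.3 CPM (60.8 to 76.5) and 64.1 CPM (46.8 to 85.8). The RELA intervals of the classes overlapped in each library.

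The genes most like each member were found over all genes of at least 20 CPM in every library, by the mean r over the 3 libraries. For TNFAIP3 they were ATF3 (0.644), GADD45A (0.630), GADD45B (0.628), SNHG12 (0.599) and PPP1R15A (0.595), of which ATF3 encodes a stress-induced transcription factor, the GADD45 genes growth arrest proteins and PPP1R15A a phosphatase subunit of the integrated stress response. For BIRC3 they were ATF3 (0.486), IRF1 (0.486), PIM3 (0.486), TNFAIP3 (0.465) and DDIT3 (0.462), the last of which encodes the stress factor CHOP. For NFKB1 they were PPP1R15A (0.392), TNFAIP3 (0.375), ATF3 (0.365), DDIT3 (0.363) and SNHG12 (0.359).

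NFKBIA stood nearest to early response and cytokine genes: ZFP36 (0.596), CXCL2 (0.545), TNFAIP3 (0.531), IER2 (0.512) and IL1A (0.508). ICAM1 stood nearest to NINJ1 (0.455), SOD2 (0.444), TNFAIP3 (0.384), CXCL8 (0.374) and CXCL3 (0.366), and TNFAIP2 to NINJ1 (0.411), ICAM1 (0.373), SOD2 (0.359), PIM3 (0.319) and PRSS22 (0.279). For NFKB2 they were RELB (0.367), TNFAIP3 (0.341), PLAU (0.335), TNIP1 (0.333) and GADD45A (0.328), and for RELB they were TNFAIP3 (0.389), PLAU (0.378), NFKB2 (0.367), PPP1R15A (0.363) and PIM3 (0.359).

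The least connected members had weak neighbours. For BIRC2 the nearest included INHBA (0.196), ETS1 (0.180), TNFAIP3 (0.179) and IL6ST (0.178). For RELA they included FOSL1 (0.148), CDKN1A (0.130), CD59 (0.114) and EHD1 (0.109), correlations too weak to count as a finding. Over 22 cell cycle genes, the median r with a member lay between -0.0789, for TNFAIP3 in double-positive cells, and 0.0368, for NFKB1 in parental cells.

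A small class of cells held a larger share of the feedback RNA than of RELA. The 4 genes ATF3, DDIT3, PPP1R15A and GADD45A were chosen after they had appeared among these neighbours, and the cells with over 13 thinned UMIs of their sum were set apart, the highest 5% over all libraries. They were 87 double-positive cells (4.48%), 53 single-positive cells (4.11%) and 135 parental cells (5.60%). Since the 4 genes were picked for their likeness to the members, high members in these cells follow from the choice, and the values are a description. These cells had median depths of 35436, 41696 and 28806 UMIs, against 29792, 38041 and 23038 UMIs in the others. Their median mitochondrial shares were 1.49%, 1.07% and 0.608%, against 2.10%, 1.31% and 0.975%.

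In these cells BIRC3 stood at 42.8 CPM (35.9 to 50.6) in double-positive, 48.6 CPM (39.7 to 58.9) in single-positive and 95.1 CPM (86.1 to 105) in parental cells. They held 21.8%, 20.0% and 40.2% of all BIRC3 UMIs of their library. For TNFAIP3 they held 27.5%, 22.6% and 36.4%, for NFKBIA 22.3%, 16.8% and 24.6%, and for RELA 6.62%, 5.23% and 7.40%. ICAM1 and TNFAIP2 differed between the sorted libraries there: ICAM1 stood at 95.03 CPM (84.6 to 106) in double-positive, 44.4 CPM (35.9 to 54.3) in single-positive and 93.5 CPM (84.5 to 103) in parental cells, and TNFAIP2 at 41.2 CPM (34.4 to 48.9), 16.4 CPM (11.4 to 22.7) and 49.6 CPM (43.1 to 56.8).

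Outside these cells BIRC3, TNFAIP3, NFKBIA and RELB had smaller ratios against parental cells, while those of TNFAIP2, NFKB2 and BIRC2 were larger. BIRC3 stood at 8.34 CPM (7.62 to 9.12) in double-positive, 8.59 CPM (7.78 to 9.46) in single-positive and 10.0 CPM (9.23 to 10.9) in parental cells. Its log2 ratio against parental cells was then -0.26 for double-positive and -0.22 for single-positive cells, where it had been -0.63 and -0.61. TNFAIP3 stood at 79.0 CPM (76.7 to 81.3), 82.9 CPM (80.4 to 85.5) and 82.4 CPM (80.1 to 84.7), with log2 ratios against parental cells of -0.06 and 0.01. NFKBIA was still lower in both sorted libraries, at 122 CPM (119 to 125), 120 CPM (117 to 123) and 140 CPM (137 to 143), with log2 ratios of -0.20 and -0.22. ICAM1 stood at 22.6 CPM (21.4 to 23.8), 20.8 CPM (19.5 to 22.1) and 19.8 CPM (18.7 to 21.0), and neighbouring intervals overlapped. TNFAIP2 became the member past the limit of 0.32, at 13.2 CPM (12.2 to 14.1) in double-positive and 13.5 CPM (12.5 to 14.6) in single-positive cells against 10.48 CPM (9.67 to 11.3) in parental cells.

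Leaving out cells chosen by genes that correlate with the members tends to lower correlations among members by construction, though not for every pair. Without these cells, 29 of 45 pairs in double-positive, 26 in single-positive and 20 in parental cells reached an r of 0.1. NFKBIA and TNFAIP2 had r of 0.0949, 0.155 and 0.258 in the same order, where it had been 0.108, 0.0813 and 0.204. TNFAIP3 and BIRC3 had r of 0.147, 0.0946 and 0.0653, while NFKBIA and TNFAIP3 still had 0.310, 0.336 and 0.494. The variance to mean ratio of NFKBIA was then 1.83, 1.65 and 2.43, and that of TNFAIP3 was 1.57, 1.44 and 1.58. Whether these cells were under stress was not tested.

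**Figure D5:**
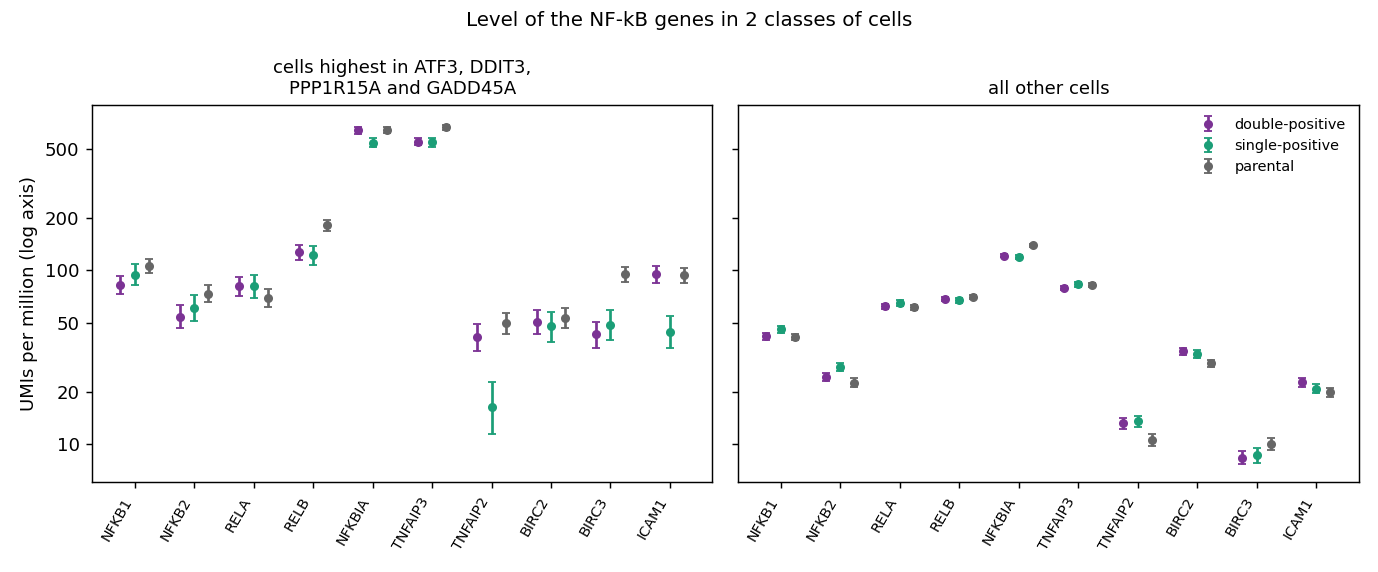
Level of each of the 10 genes, in CPM on a log axis with exact 95% Poisson intervals, in the cells highest in the 4 stress genes (left) and in all other cells (right), with double-positive, single-positive and parental from left to right for each gene. BIRC3 reads 42.8, 48.6 and 95.1 CPM on the left and 8.34, 8.59 and 10.0 CPM on the right.

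A low mitochondrial share also went with higher feedback genes, and such cells were unequally spread: 120 double-positive (6.19%), 281 single-positive (21.8%) and 767 parental cells (31.8%) had under 0.5%. In these parental cells BIRC3 stood at 21.0 CPM, against 11.8 CPM in the other parental cells. NFKBIA stood at 218 CPM in the low-mitochondrial double-positive cells, against 143 CPM in the other double-positive cells, and at 192 against 159 CPM in parental cells. In single-positive cells NFKBIA stood at 141 CPM (135 to 147) against 136 CPM (133 to 140), with overlapping intervals. TNFAIP3 there stood at 109 CPM (104 to 114) against 99.9 CPM (96.6 to 103), without overlap. The low-mitochondrial cells were deeper, with medians of 39014 UMIs in double-positive, 49369 in single-positive and 31738 in parental cells. The other cells had 29388.5, 35466.5 and 21016 UMIs. Without the low-mitochondrial cells no member was past the limit for double-positive against parental cells, and BIRC3 alone was for single-positive against parental cells. The part of these cells in the gaps between libraries was otherwise not tested.

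Cells with at least 1 thinned UMI of a type I or III interferon gene (IFNL1, IFNL2, IFNL3 or IFNB1) were few, 10 double-positive, 4 single-positive and 20 parental. In them NFKBIA stood at 322 CPM (262 to 390) in double-positive, 931 CPM (806 to 1070) in single-positive and 756 CPM (686 to 831) in parental cells. A single UMI puts a cell in this class. IFNL1 stood at 2.01, 5.31 and 4.03 CPM in all cells and at 1.15, 2.34 and 4.03 CPM in the small barcodes that hold free RNA. Whether such a UMI came from the cell itself was not tested. The cells held 1.13%, 2.86% and 3.89% of the NFKBIA UMIs of their libraries. Without them NFKBIA stood at 134 CPM in single-positive and 168 CPM in parental cells, where it had been 138 and 173 CPM. This was only just short of the limit, and BIRC3 was past it.

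Most of the rest of the pathway, taken from lists of known pathway genes, stayed within the limit in each comparison. The targets were the least level: for single-positive against parental cells 5 of 17 were apart, where 5.24% of all genes were. Over all genes, 1.35% were higher and 2.68% lower by the limit for double-positive against single-positive cells, 3.86% and 1.38% for single-positive against parental cells, and 1.44% and 1.65% for double-positive against parental cells. Of 10 IkB kinase and IkB genes, 8 had a mean of at least 10 CPM. IKBKE, an inducible kinase related to the IkB kinases, was the only one of these 8 past the limit, at 18.2 CPM in double-positive, 14.4 CPM in single-positive and 18.3 CPM in parental cells, with log2 ratios of 0.34 (0.21 to 0.48) for double-positive against single-positive and -0.35 (-0.48 to -0.21) for single-positive against parental cells. The list's median log2 ratios were 0.08 for double-positive against single-positive, 0.03 for single-positive against parental and 0.10 for double-positive against parental cells.

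Of 25 receptors and adaptors, 16 were above the floor, and 2 were lower by the limit in double-positive than in single-positive cells. IRAK1, a kinase of the interleukin-1 and Toll-like receptor pathway, stood at 52.5 CPM in double-positive, 72.3 CPM in single-positive and 60.9 CPM in parental cells, with a log2 ratio of -0.46 (-0.53 to -0.39) for double-positive against single-positive cells. SHARPIN, a subunit of the linear ubiquitin ligase, stood at 36.4, 46.3 and 45.4 CPM, with a log2 ratio of -0.35 (-0.43 to -0.26). No receptor or adaptor above the floor was past the limit, 0.3219 unrounded, against the parental library. The lowest ratios were only just short, at -0.3185 for double-positive and -0.3124, of RBCK1, for single-positive against parental cells. The medians were -0.10 for double-positive against single-positive, 0.08 for single-positive against parental and 0.00 for double-positive against parental cells. TRAF1, an adaptor of tumour necrosis factor receptors, was seen after the fact to be the member of this list with the highest r to TNFAIP3 in each library, at 0.451 in double-positive, 0.377 in single-positive and 0.550 in parental cells.

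Of 10 further brakes, 9 were above the floor and only TNFAIP8 passed the limit, at 40.4 CPM in double-positive, 30.9 CPM in single-positive and 35.8 CPM in parental cells, with a log2 ratio of 0.39 (0.29 to 0.48) for the double-positive library against the single-positive one. Of 9 ligands, 4 were above the floor and none passed. TNF itself stood at 0.899 CPM in double-positive, 0.614 CPM in single-positive and 1.18 CPM in parental cells.

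Of 25 targets, 17 were above the floor. PLAU and PLAUR, which encode urokinase and its receptor, were higher by the limit in double-positive than in single-positive cells. PLAU stood at 348 CPM in double-positive, 262 CPM in single-positive and 287 CPM in parental cells, and PLAUR at 414, 324 and 383 CPM. For single-positive against parental cells, 4 targets were lower by the limit and 1 was higher. CSF2, a colony-stimulating factor, had a log2 ratio of -0.48 (-0.57 to -0.40), CXCL8 of -0.39 (-0.46 to -0.32) and CXCL2 of -0.35 (-0.40 to -0.30), while CXCL1 had 0.41 (0.35 to 0.47). The other lower target was SOD2, a mitochondrial antioxidant enzyme named here after its value was seen, at -0.32. For double-positive against parental cells LCN2, a secreted siderophore-binding protein, had -0.42 (-0.44 to -0.40) and CXCL8 had -0.40 (-0.47 to -0.33). The median log2 ratios of the targets were 0.03 for double-positive against single-positive, -0.10 for single-positive against parental and -0.06 for double-positive against parental cells.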

How the data were processed

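Single-cell RNA was read in 3 libraries of BxPC-3 cells, double-positive, single-positive and parental, made with a 10x 5′ kit per the labels' protocols. The deposited matrices hold unfiltered counts of UMIs for every gene in every barcode. Cell Ranger wrote them, per the file headers. Named in the submitters' processing notes are build GRCh38, Seurat 4.0.6 and Cell Ranger 4.0.0. The gene annotation release was not given in the sources used here. Totals were 62517276 UMIs in the double-positive, 51637677 in the single-positive and 65107147 in the parental library, of which 97.7% to 98.0% lay in cells.

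Barcodes of at least 6500 UMIs were kept as cells, with no limit on mitochondrial share (none was over 20%). No doublet was removed and no caller was run, because the double-positive cells were sorted for both colours. Cells of 50000 UMIs or more, 170 double-positive, 344 single-positive and 156 parental, were left out in an alternative. UMIs were summed per library and scaled to CPM (counts per 1000000 UMIs), with exact Poisson intervals, and log2 ratios had exact conditional binomial intervals. UMIs of a gene are clustered in cells, so intervals that cover counting error alone are too narrow for its spread over cells. No p-value was computed. Levels of different genes were not ranked, since capture differs between genes.

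Spread was the variance to mean ratio after thinning to 6500 UMIs, and correlations used analytic Pearson residuals with an overdispersion parameter of 100, clipped at the square root of the cell number. Alternatives changed the cell call, mitochondrial limits, scaling, weighting of cells, depth, ambient RNA, fold limit and floor. The members, lists and rules were chosen with earlier results of these data known. The rule for named genes took all 10 members, up to 4 genes per list and comparison with a log2 ratio of at least 0.32 in size and a mean of at least 10 CPM, and the 5 nearest genes of each member, of which 2 are not reported here. Promoters came from RefSeq on GRCh38.p14 and positions from GENCODE 29. The steps were tested on simulated data. There the pooled counts were not clustered in cells, and the genes for spread and correlation all had a single level. The tests therefore do not cover clustered UMIs or genes of other levels. Tools were pandas 2.3.3, scipy 1.17.1, matplotlib 3.10.9 and numpy 2.4.6 in Python 3.11.15.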

Additional observations from a re-analysis of the deposited data

How the results depend on the processing

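Each group was 1 library, so no replicate could be left out. No paired analysis was possible because every group has a single library with the same replicate number. The alternative without the cells highest in the 4 stress genes was chosen after seeing the data. No count or ratio called past a limit changed sign. For double-positive against single-positive cells, the count of members at least 0.32 apart on the log2 scale, 0, became 2 (BIRC2 and ICAM1) in cells of a shared UMI range, and 1 (ICAM1) without cells of 50000 UMIs or more or in cells of at most 10 thinned cycle-gene UMIs. For single-positive against parental cells the count of 2 became 4 in the shared range (RELB, NFKBIA, TNFAIP3 and ICAM1), 1 (TNFAIP2) without the stress-gene cells, and 1 (BIRC3) without cells under 0.5% mitochondrial UMIs, without cells with an interferon UMI, with the mean of per-cell CPM, after thinning to 6500 UMIs and at a fold limit of 1.5. For double-positive against parental cells the count of 1 became 0 without cells under 0.5% mitochondrial UMIs, 2 in the shared range (NFKBIA and TNFAIP3) and 3 after thinning (TNFAIP2, BIRC2 and BIRC3), and without the stress-gene cells it stayed at 1 but was TNFAIP2. The shared range, 22974 to 32998 UMIs, left 701 double-positive, 142 single-positive and 628 parental cells, and BIRC3 there fell under the 10 CPM floor, with log2 ratios of -0.79 for double-positive and -1.10 for single-positive against parental cells. Over all 14 alternatives the BIRC3 ratio stayed below 0, at or past -0.32 in 12 for double-positive and 13 for single-positive against parental cells. Of the 14, the limit of at most 20% mitochondrial UMIs left out 0 cells in each library, so it repeated the main values by construction. The NFKBIA ratio for single-positive against parental cells ran from -0.53 to -0.22 and passed -0.32 in 9 of 14. Without cells with an interferon UMI it was only just short of the limit. The TNFAIP3 ratio for single-positive against parental cells ran from -0.51 to 0.01. Pairs with an r of at least 0.1 numbered 15, where there had been 36, in double-positive and 9, where there had been 32, in single-positive cells on thinned log2 UMIs, and 20, where there had been 36, in parental cells without the stress-gene cells. Members with a variance to mean ratio of at least 1.5 numbered 2, down from 4, in double-positive and 3, down from 5, in parental cells both without the stress-gene cells and after thinning to 3000 UMIs, and 1, down from 2, in single-positive cells without the stress-gene cells. The causes of these shifts were not tested. At this depth BIRC3 rests on 619 double-positive, 519 single-positive and 998 parental UMIs.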

Other observations

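Barcodes of 500 UMIs up to the cell limit were in no comparison. They numbered 189 in the double-positive, 138 in the single-positive and 221 in the parental library, and their mitochondrial shares were 27.8%, 39.6% and 17.0%. In them NFKBIA stood at 181 CPM (144 to 225), 99.1 CPM (66.4 to 142) and 182 CPM (148 to 221), and RELA at 33.5 CPM (18.8 to 55.3), 54.7 CPM (31.3 to 88.8) and 32.8 CPM (19.4 to 51.8) in the same order. NFKB2 stood at 33.5 CPM (18.8 to 55.3), 34.2 CPM (16.4 to 62.9) and 74.6 CPM (53.5 to 101), where the parental cells themselves had 25.9 CPM. BIRC3 had 2 UMIs in each sorted library and 10 in the parental library.

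IL6, a target below the 10 CPM floor and named after its values were seen, had 37 UMIs in double-positive, 44 in single-positive and 251 in parental cells, or 0.605 CPM, 0.872 CPM and 3.94 CPM. Its log2 ratio against parental cells was -2.70 (-3.24 to -2.20) for double-positive and -2.17 (-2.67 to -1.71) for single-positive cells. Other targets below the floor, also named after the fact, did not follow IL6 for single-positive against parental cells. MMP9 had 0.80 (0.30 to 1.32) and IL23A had 0.42 (0.23 to 0.62). BCL2A1, CD83, TNFRSF9 and CXCL5 had intervals that included 0, and VCAM1 had 0 and 1 UMIs.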
